A study of Mus musculus with 14 samples.

Results

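Matrix metalloproteinases are secreted or membrane-bound zinc enzymes that cut collagens, elastin and other parts of the extracellular matrix, and the tissue inhibitors of metalloproteinases (TIMPs) bind and block them. This account covers 10 genes of the 21444 in the gene tables: the gelatinases Mmp9 and Mmp2, the collagenases Mmp8 and Mmp13, the macrophage elastase Mmp12, the membrane-anchored Mmp14, Mmp19, and the inhibitors Timp1, Timp2 and Timp3. The genes were picked by name, with the change of Mmp9 between genotypes already known from these data. Their differences between knockout (KO) and wild type (WT) are therefore given as a description, and calls of the fits on them are printed for completeness only.

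The study profiled mRNA, miRNAs and the sites held by AGO2 in macrophages, grown from mouse bone marrow, that lack or keep ELAVL1 (HuR), a protein that binds AU-rich and U-rich stretches of mRNA. The KO mice were C57BL/6 with floxed Elavl1 alleles and LysM-Cre, which is active in myeloid cells, and the WT mice were C57BL/6 with the same floxed alleles and no Cre. Bone marrow was grown with 20% L929 cell medium, for 6 days by the growth protocol and 7 days by the design text. There were 4 KO and 4 WT mRNA libraries numbered 1 to 4, 2 KO and 2 WT small RNA libraries, and 1 KO and 1 WT AGO2 PAR-CLIP library. The labels do not tie the numbers to animals or batches, so the spread between libraries may be in part technical.

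In macrophages, metalloproteinases are made as inactive precursors, and secreted forms are opened outside the cell by other proteases. MMP14 on the cell surface can activate the MMP2 precursor in a complex with TIMP2, while TIMP1 binds the MMP9 precursor. MMP12 degrades elastin and is a typical product of activated macrophages. MMP8 is best known from neutrophil granules and MMP13 from bone and cartilage cells.

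The mRNA libraries held 8160789 to 25030262 gene counts in KO and 11192104 to 24681273 in WT. Libraries 3 and 4 stood apart from libraries 1 and 2 in both genotypes. Of 14019 genes tested, 7181 (51.2%) differed between these number sets at an edgeR adjusted p under 0.05. The 4 Y-linked genes listed summed to 0.121 to 0.422 CPM (counts per 1000000 after TMM scaling) in the libraries numbered 3 and 4. They summed to 67.1 to 92.5 CPM in those numbered 1 and 2. By these genes the number sets appear to differ in the sex of the mice, which is not among the labels used here. The part of sex in the differences between the sets was not tested. Elavl1 itself was not lower in the libraries labelled KO, at 76.8, 64.1, 64.9 and 72.4 CPM in KO libraries 1 to 4 and 65.9, 61.2, 62.6 and 64.2 CPM in WT libraries 1 to 4. Which exons the floxed alleles flank is not given in the labels, so a count over the whole gene checks the label only in part. Lyz2, the gene into which LysM-Cre is inserted, was lower in all KO libraries, at 3723 to 6142 CPM in KO and 9949 to 15451 CPM in WT. The macrophage genes Csf1r and Adgre1 were between 1691 and 4271 CPM in every library.

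The sequences of AGO2 groups listed on these mRNAs are shown first, because the binding data rest on them. In PAR-CLIP, cells take up a thiouridine that crosslinks RNA to the bound protein, and crosslinked positions are read as T-to-C conversions. The authors listed groups of overlapping reads with their place in the transcript (build mm9). Capitals mark a match to a miRNA seed (the complement of bases 2 to 8, or of bases 2 to 7 followed by A) or, for Mmp9, a run of T. Each sequence runs 5′ to 3′ in the sense of the mRNA. Every group printed held a conversion except the Timp2 group at chr11:118164351-118164372 in KO.
Timp2 3′UTR, both genotypes, chr11:118164077-118164106, minus strand: ctaccagcactccctctTTTGCACAaactg
Timp2 3′UTR, KO, chr11:118164351-118164372, minus strand: ccctccCTGAGCCgtgtttctg
Timp2 3′UTR, WT, chr11:118163565-118163591, minus strand: actctgaagtctggtagcCTGTGAAtg
Mmp12 coding, both genotypes, chr9:7352889-7352917, plus strand: cacaaacctcttccttgtTGCTGTTcatg
Mmp12 coding, WT, chr9:7355367-7355389, plus strand: catatattccctgggcttctctg
Mmp12 3′UTR, both genotypes, chr9:7358484-7358508, plus strand: cttttacaaaattaacctcttttag
Mmp13 3′UTR, KO, chr9:7283183-7283201, plus strand: taacactTGGTGCTtactg
Mmp14 coding, KO, chr14:55054678-55054699, plus strand: caaaagttctatgGTTTACAag
Mmp14 coding, KO, chr14:55059388-55059413, plus strand: tcctgccggtactacTGCTGCTcctg
Mmp19 3′UTR, WT, chr10:128236820-128236843, plus strand: aaaaTACTGTAtgtgaaatatctg
Mmp9 3′UTR, KO, chr2:164781312-164781334, plus strand: TTTTTtaaataaatgaataaatg
Mmp9 3′UTR, WT, chr2:164780519-164780542, plus strand: actggtgatctcttctagagactg

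The miRNAs whose seeds match those capitals are printed with bases 2 to 8 in capitals (RefSeq sequences, 368 of the 485 miRNAs in the count files matched by name).
miR-24-3p: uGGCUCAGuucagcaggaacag
miR-27b-3p: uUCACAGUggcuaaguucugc
miR-29a-3p: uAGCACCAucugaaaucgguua
miR-30e-5p: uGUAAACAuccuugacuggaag
miR-16-5p: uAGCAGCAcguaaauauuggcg
miR-101b-3p: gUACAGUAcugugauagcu
miR-21a-3p: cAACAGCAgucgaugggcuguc
miR-19b-3p: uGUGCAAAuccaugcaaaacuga

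In mRNA, Timp2 had the highest level of the 10 genes per length, with a mean over the 8 libraries of 175 RPKM as deposited (reads scaled to gene length and library size). Mmp12 followed at 52.0 RPKM, Mmp14 at 34.03, Mmp19 at 14.5, Mmp9 at 9.39, Mmp8 at 5.34 and Mmp13 at 3.85 RPKM. Timp1, Mmp2 and Timp3 had means of 0.614, 0.569 and 0.530 RPKM. The ranges of neighbours overlapped for every step of this order below Timp2. Timp2, at 143 to 232 RPKM in KO and 118 to 235 RPKM in WT, lay above every other gene's highest library. The length that counts and RPKM imply was 1136 to 1179 bases for Timp2 and 6923 to 7182 bases for Mmp12, and the order depends on these lengths. Levels per length also ranked differently by number set: Mmp12 held rank 2 in libraries 3 and 4 and rank 5 in libraries 1 and 2, and Mmp9 held rank 7 in libraries 3 and 4 and rank 3 in libraries 1 and 2.

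**Figure D1:**
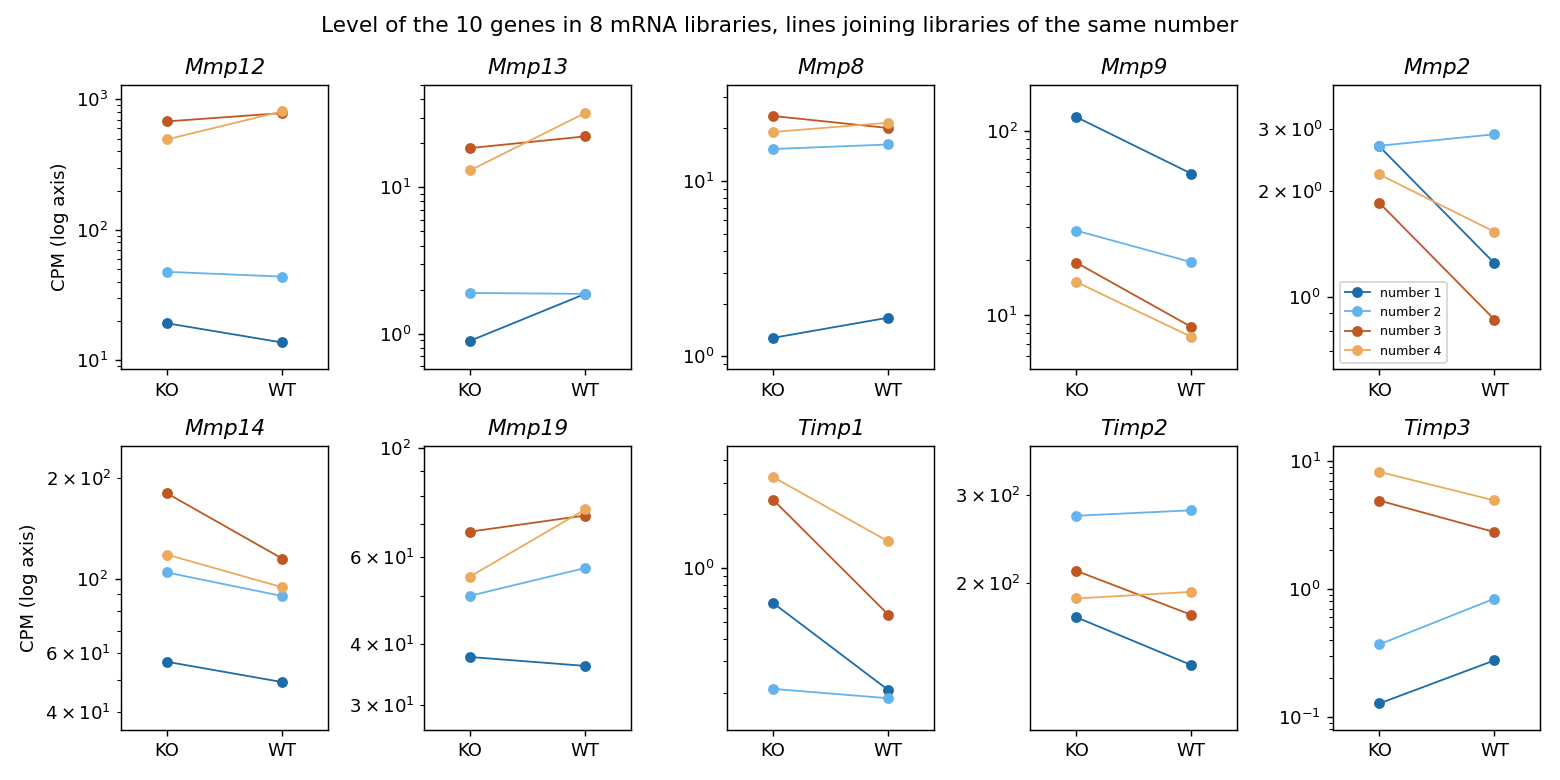
CPM on a log axis for each of the 10 genes in KO (left) and WT (right), 1 point a library, with lines joining libraries of the same number. Mmp12 and Mmp13 split by library number far more than by genotype, and the Mmp9 line falls toward WT at all 4 numbers.

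Mmp9, gelatinase B, was higher in KO at each number. It had 118, 28.8, 19.3 and 15.2 CPM in KO libraries 1 to 4, against 58.5, 19.4, 8.66 and 7.65 CPM in WT libraries 1 to 4. The log2 ratio of KO to WT was 1.02, 0.57, 1.16 and 0.99 at numbers 1 to 4. Library 1 was far above the other 3 libraries in each genotype, and KO and WT overlapped as groups. The fitted log2 difference was 0.94 with an SE of 0.82 across the 8 libraries, and 0.94 with an SE of 0.11 when the number was a block. Without KO library 1 the unblocked difference was -0.16, and without WT library 1 it was 1.93.

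Mmp2, gelatinase A, was scarce. It had 2.68, 2.69, 1.85 and 2.23 CPM in KO libraries 1 to 4 and 1.25, 2.89, 0.862 and 1.53 CPM in WT libraries 1 to 4. KO was above WT at numbers 1, 3 and 4 and below it at number 2, and these values rest on 18 to 58 counts a library. The fitted log2 difference between KO and WT was 0.55 (SE 0.39).

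Mmp14, which anchors in the membrane and activates MMP2, was also higher in KO at all 4 numbers, by less than Mmp9. It had 56.6, 105, 180 and 118 CPM in KO libraries 1 to 4, against 49.2, 88.9, 115 and 94.4 CPM in WT libraries 1 to 4. The log2 ratios of KO to WT were 0.20, 0.23, 0.65 and 0.32, and the groups overlapped. The fitted log2 difference was 0.40 (SE 0.36), and 0.36 (SE 0.09) with the number as a block.

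Mmp12, the macrophage elastase, had opposite directions in the number sets. It had 19.2, 47.7, 677 and 493 CPM in KO libraries 1 to 4 and 13.7, 43.8, 783 and 808 CPM in WT libraries 1 to 4. KO was above WT at numbers 1 and 2, with log2 ratios of 0.49 and 0.12, and below it at numbers 3 and 4, with -0.21 and -0.71. The test of that difference, an interaction of genotype with number set, gave a log2 value of -0.69 (SE 0.76, edgeR adjusted p = 1).

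Mmp13, which cuts fibrillar collagens, was likewise far higher in libraries 3 and 4 than in libraries 1 and 2, at lower levels. It had 0.892, 1.90, 18.5 and 13.1 CPM in KO libraries 1 to 4 and 1.87, 1.87, 22.3 and 32.2 CPM in WT libraries 1 to 4. The widest gap between genotypes was at number 4, where the log2 ratio of KO to WT was -1.30. Library KO 1 held only 7 counts of this gene and no ratio was taken at number 1.

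Mmp8, the neutrophil collagenase, and Mmp19 did not separate by genotype. Mmp8 had 1.27, 15.2, 23.5 and 19.0 CPM in KO libraries 1 to 4 and 1.66, 16.2, 20.1 and 21.5 CPM in WT libraries 1 to 4. Mmp19 had 37.6, 50.1, 67.7 and 54.8 CPM in KO libraries 1 to 4 and 36.0, 57.0, 73.0 and 75.1 CPM in WT libraries 1 to 4. The fitted log2 differences between KO and WT were 0.00 (SE 0.81) for Mmp8 and -0.20 (SE 0.26) for Mmp19.

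Timp2, which binds both MMP2 and MMP14, did not split by genotype. It had 171, 272, 211 and 186 CPM in KO libraries 1 to 4 and 137, 279, 172 and 192 CPM in WT libraries 1 to 4. KO was above WT at numbers 1 and 3 and just below it at numbers 2 and 4. The fitted log2 difference between KO and WT was 0.11 (SE 0.25).

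Timp1, a soluble inhibitor, and Timp3, which stays bound to the matrix, were near 0 in libraries 1 and 2. Timp1 had 0.637, 0.211, 2.41 and 3.22 CPM in KO libraries 1 to 4 and 0.208, 0.187, 0.548 and 1.41 CPM in WT libraries 1 to 4. Timp3 had 0.127, 0.369, 4.90 and 8.21 CPM in KO libraries 1 to 4 and 0.277, 0.840, 2.78 and 4.91 CPM in WT libraries 1 to 4. Libraries 1 and 2 held at most 5 counts of Timp1 and 9 counts of Timp3. At numbers 3 and 4 the log2 ratio of KO to WT was 2.13 and 1.19 for Timp1, and 0.82 and 0.74 for Timp3.

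**Figure D2:**
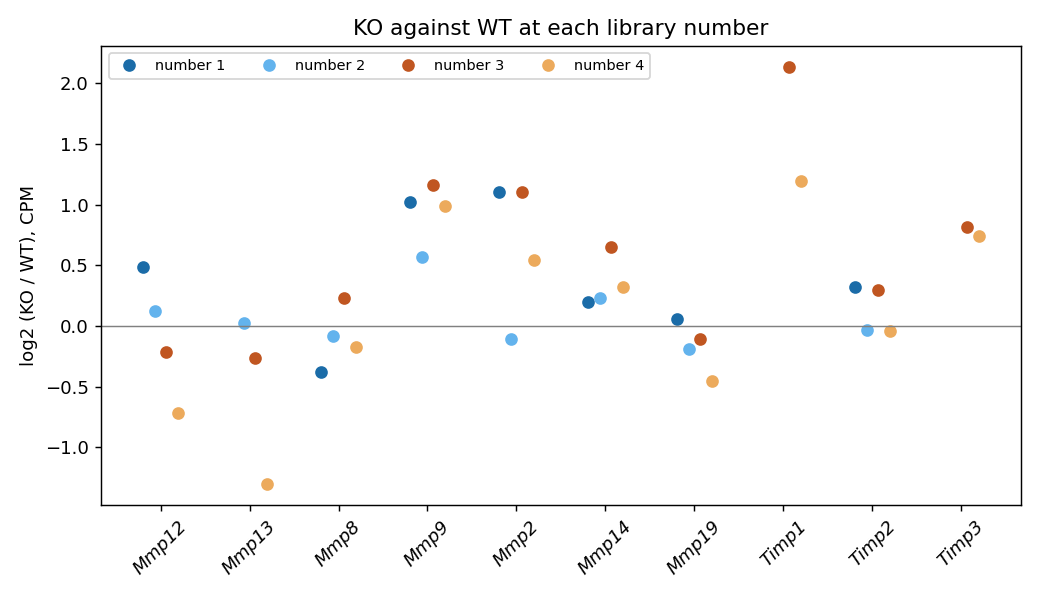
Log2 ratio of KO to WT CPM at each library number, for pairs in which both libraries held at least 10 counts. All Mmp9 points, from 0.57 to 1.16, and all Mmp14 points, from 0.20 to 0.65, lie above 0, while Mmp12 lies on both sides.

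All 10 genes passed the filter on low counts. Across them, no KO group lay wholly above or below the WT group. Over all genes tested, 0.35% had every KO library above every WT library and 0.435% had every KO library below. KO was above WT at all 4 numbers for 3 of the 10 genes, namely Mmp9, Mmp14 and Timp1, beside 9.52% of all genes tested. Timp1 counts toward this only through 5 against 3 counts at number 1 and 4 against 2 at number 2. The 10 genes were listed with the change of Mmp9 known, so nothing is read from the count of 3. No gene of the 10 had KO below WT at all 4 numbers, beside 8.26% of all genes. In the fit across genes without a block, 0 of 14019 genes (0.0%) passed an adjusted p of 0.05 by edgeR, 81 had an unadjusted p under 0.05, and DESeq2 called 3 (0.0214%). With the number as a block, 5 of 14019 genes (0.0357%) passed, 1 of them higher in KO (0.00713% of all genes), which was Mmp9. For the same reason, nothing is read from this call. The call of Mmp9 ended when number 1 or number 4 was left out of the blocked fit. The median log2 difference between KO and WT was 0.26 over the 10 genes and 0.00 over all genes tested.

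The library number sets separated most of these genes further than genotype did. This split was first seen in the expression of the same libraries and has no label of its own, so the values below describe a known split and are no independent evidence for it. Between the sets, 6 of the 10 genes were called higher in libraries 3 and 4 and 1 was called lower. Over all genes tested, 25.6% were called higher and 25.7% lower. The 6 include Timp1 and Timp3, which reached 10 counts only in libraries 3 and 4 and so could hardly have been called lower there. Mmp12, Mmp13, Mmp8 and Timp3 were higher in each of the 4 libraries numbered 3 and 4 than in any numbered 1 and 2, as were 25.1% of all genes. Mmp9 was the 1 gene wholly lower, as were 24.4% of all genes.

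Mmp12 had the widest gap of the 10, with a mean of 690 ± 143 CPM in libraries 3 and 4 and 31.1 ± 17.1 CPM in libraries 1 and 2 (SD, n = 4 each). The log2 difference was 4.45 (SE 0.42, edgeR adjusted p = 0.000113). A difference of at least 4 on the log2 scale, in either direction, was seen for 0.428% of all genes tested. Mmp13 differed by 3.63 (SE 0.25, edgeR adjusted p = 3.89e-05), with 21.5 ± 8.07 CPM in libraries 3 and 4 and 1.63 ± 0.493 CPM in libraries 1 and 2 (SD, n = 4 each).

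Timp3 and Timp1 rose alongside these elastase and collagenase genes in libraries 3 and 4. The log2 difference was 3.62 for Timp3 (SE 0.48, edgeR adjusted p = 0.000456) and 2.69 for Timp1 (SE 0.47, edgeR adjusted p = 0.0017). Both genes reached 10 counts only in the libraries numbered 3 and 4, so a call in the other direction was hardly possible. Timp1 overlapped between the sets, since WT library 3 at 0.548 CPM lay below KO library 1 at 0.637 CPM.

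Mmp14 and Mmp19 rose by less. The log2 difference was 0.74 for Mmp14 (SE 0.25, edgeR adjusted p = 0.0322) and 0.57 for Mmp19 (SE 0.16, edgeR adjusted p = 0.0163). Mmp14 missed the threshold without KO library 1 (edgeR adjusted p = 0.069), KO library 3 (0.0993), WT library 1 (0.0586) or WT library 3 (0.0915), and Mmp19 missed it without KO library 3 (0.0513).

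Mmp9 went the other way, at 12.7 ± 5.53 CPM in libraries 3 and 4 and 56.3 ± 44.7 CPM in libraries 1 and 2 (SD, n = 4 each). The log2 difference was -2.17 (SE 0.45, edgeR adjusted p = 0.00388). Mmp8, Mmp2 and Timp2 did not pass, at 1.26 (SE 0.65, edgeR adjusted p = 0.133), -0.57 (SE 0.31, edgeR adjusted p = 0.152) and -0.18 (SE 0.22, edgeR adjusted p = 0.528). Mmp8 passed when WT library 2 was left out (edgeR adjusted p = 0.0376). The interaction of genotype with number set passed for 0 of 14019 genes (0.0%) by edgeR, with 133 at an unadjusted p under 0.05, and no other tool was run on it. Its adjusted p was 1 for each of the 10 genes.

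**Figure D3:**
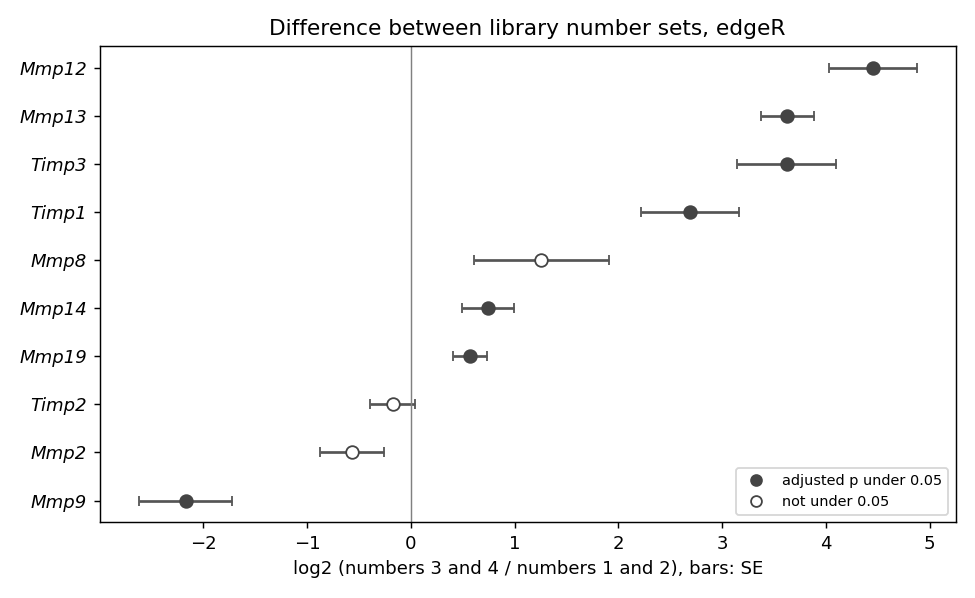
Log2 difference between libraries numbered 3 and 4 and libraries numbered 1 and 2 (x axis) for each gene, with the SE as bars, n = 4 libraries a set. Filled points passed an adjusted p of 0.05; Mmp12 at 4.45 and Mmp9 at -2.17 are the ends of the range.

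Over the 8 libraries, Mmp12 and Mmp13 had the closest profiles among the 10 genes (Pearson r = 0.970 of log2 CPM), and Mmp9 ran opposite to Mmp19 (r = -0.933). These r values are descriptions of 8 libraries that fall into the same number sets. By the same measure over all genes tested, Mmp13 was nearest to Plau (r = 0.996), the urokinase that turns plasminogen into plasmin. Mmp9 was nearest to Pabpc1 (r = 0.993), Cpne1 and Jun, a subunit of the AP-1 transcription factor (r = 0.986). Mmp8 was nearest to the Fc receptor gene Fcgr3 (r = 0.993), Timp2 to Susd3 (r = 0.993) and Timp3 to Cpe (r = 0.991).

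In the mouse genome several metalloproteinase genes lie side by side on chromosome 9. In the RefSeq annotation of GRCm38.p6 their order is Mmp13, Mmp12, Mmp1b, Mmp3, Mmp1a, Mmp10, Mmp8, Mmp27, Mmp20 and Mmp7. The 5 of these that passed the filter on low counts, Mmp13, Mmp12, Mmp3, Mmp8 and Mmp27, all had positive log2 differences between libraries 3 and 4 and libraries 1 and 2, and 4 of them, all but Mmp8, passed the test, beside 25.6% of all genes called higher. Mmp3, which can activate other metalloproteinases, had 1.81, 1.19, 0.470 and 2.66 CPM in KO 3, KO 4, WT 3 and WT 4. It had 0 counts in all 4 libraries numbered 1 and 2, so it could only be called higher. Mmp27 had 16.8, 14.4, 14.4 and 15.4 CPM in KO 3, KO 4, WT 3 and WT 4 and 2.80, 7.48, 3.67 and 8.87 CPM in KO 1, KO 2, WT 1 and WT 2. Mmp10, named after its values were seen, held at most 49 counts in a library and did not pass the filter.

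The AP-1 motif TGACTCA, or TGAGTCA on the other strand, is the classical regulatory motif of collagenase promoters. RefSeq promoter sequences (GRCm38.p6) were matched for 7 of the 10 genes, with 8 starts. None was at hand for Mmp9, Mmp2 and Mmp19, so the motif was not searched in these genes. In the 250 bases before the start, the motif was found for Mmp13 and for 1 of 2 starts of Mmp12, and at 4.46% of the 32851 starts in the table. Timp3 and Timp1 were among the genes searched and did not hold the motif there. They also differed between the number sets, by 3.62 and 2.69 on the log2 scale. The part of AP-1 in the levels of any of these genes was not tested. The stretches of 30 bases around the motif are shown with the motif in capitals.
Mmp13, from base 35 to base 29 before the start: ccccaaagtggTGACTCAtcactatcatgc
Mmp12, from base 44 to base 38 before the start: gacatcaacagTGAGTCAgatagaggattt

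Of 19 genes tested that activate, bind or inhibit metalloproteinases outside the family itself, 6 rose and 3 fell in libraries 3 and 4, where 25.6% of all genes tested rose and 25.7% fell. They had a median log2 difference of 0.43 over the list and 0.00 over all genes tested. Plau had 97.5, 72.5, 130 and 155 CPM in KO 3, KO 4, WT 3 and WT 4 and 15.7, 26.6, 24.8 and 25.8 CPM in KO 1, KO 2, WT 1 and WT 2. Its log2 difference was 2.24 (SE 0.19, edgeR adjusted p = 8.22e-05). Serpine2, Cd44, Itgav and Srgn were also among those that rose. Furin, the protease that opens the MMP14 precursor, fell by 0.65 on the log2 scale, Hpn fell by 1.69 and Lcn2, which binds MMP9, fell by 1.19. Between KO and WT, 0 of the 19 were called by edgeR with or without the block (background 0.0% and 0.0357%).

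Among the 6 other MMP and TIMP genes that passed the filter, of 12 in the tables, Mmp3 and Mmp27 rose and Mmp28 fell in libraries 3 and 4. Mmp28 differed by -1.24 (SE 0.31, edgeR adjusted p = 0.00973). Mmp25, a membrane-anchored member of neutrophils, had a log2 difference of 1.02 that did not pass (edgeR adjusted p = 0.0563).

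Genes for matrix proteins that these enzymes cut rose in libraries 3 and 4, with 13 of 15 tested called higher and 0 called lower, beside 25.6% and 25.7% of all genes. Several of them, such as Col1a1 and Bgn, are also among the stromal markers below. Some, such as Col3a1 and Col6a1, held 0 to 4 counts in libraries 1 and 2 and could hardly be called lower in libraries 3 and 4. The median log2 difference of the list was 3.08, against 0.00 over all genes tested. Spp1, encoding osteopontin, which several metalloproteinases cleave, had 4022, 2862, 3979 and 3972 CPM in KO 3, KO 4, WT 3 and WT 4, against 558, 419, 785 and 691 CPM in KO 1, KO 2, WT 1 and WT 2. Fn1, fibronectin, had 49.1, 51.9, 11.9 and 32.6 CPM in KO 3, KO 4, WT 3 and WT 4, against 2.04 and 3.001 CPM in KO 1 and KO 2 and 8.72 and 1.77 CPM in WT 1 and WT 2. Between KO and WT, 14 of the 15 had positive log2 differences and 0 were called by edgeR.

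Markers of other cells moved with the same split. Of 15 stromal and fibroblast markers tested, 14 rose in libraries 3 and 4 and 0 fell. Over all genes, 25.6% were called higher and 25.7% lower. Some markers, such as Col3a1 and Col6a1, held 0 to 4 counts in libraries 1 and 2. Such markers passed the filter on low counts through libraries 3 and 4 and could hardly be called lower there, so this count is in part fixed in advance. The summed level of all 18 such markers in the tables was 120, 152, 27.4 and 81.4 CPM in KO 3, KO 4, WT 3 and WT 4, against 5.48, 7.37, 11.6 and 8.40 CPM in KO 1, KO 2, WT 1 and WT 2. Pdgfra, a defining stromal marker, held 18 to 104 counts in libraries 3 and 4 and 0 in libraries 1 and 2. Within libraries 3 and 4, Timp1 and Timp3 were both highest in KO 4 and lowest in WT 3, the libraries with the highest and lowest stromal sum. Mmp12 was highest in WT 4 and lowest in KO 4. The part of stromal cells in these levels was not tested, and in bulk RNA more cells of a type and more RNA per cell cannot be told apart. All 15 stromal markers also had positive log2 differences between KO and WT, with 0 called by edgeR.

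**Figure D4:**
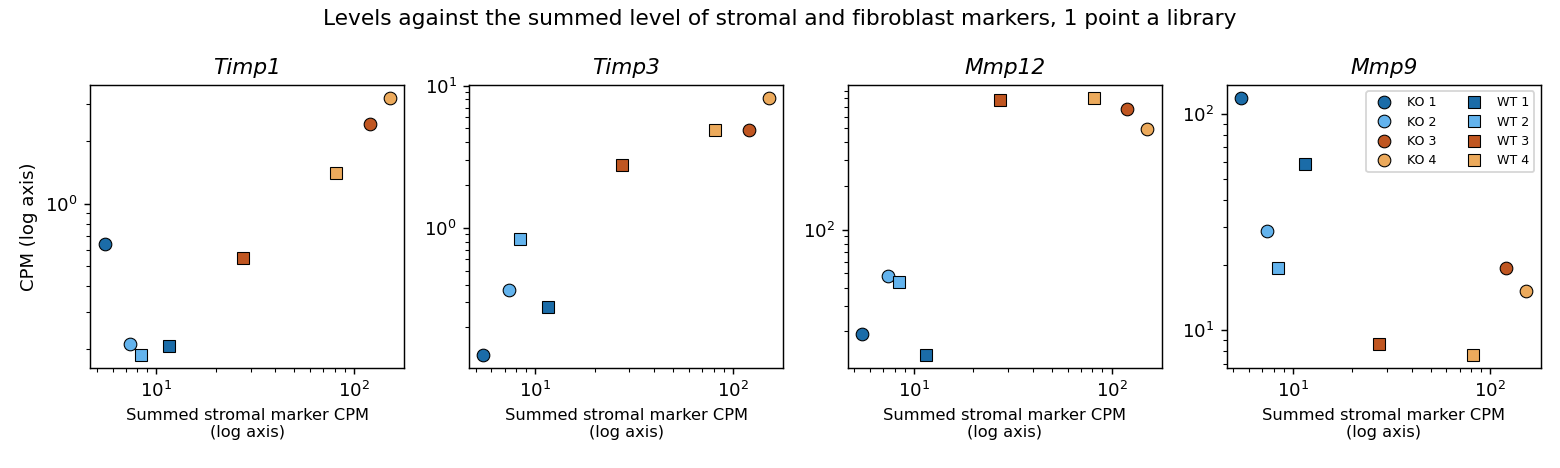
CPM of Timp1, Timp3, Mmp12 and Mmp9 (y axis, log) against the summed CPM of 18 stromal and fibroblast markers (x axis, log), 1 point a library, circles KO and squares WT. In libraries 3 and 4 the stromal sum runs from 27.4 to 152 CPM, and in libraries 1 and 2 it stays between 5.48 and 11.6 CPM.

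Neutrophils and their precursors carry much Mmp8 and Mmp9. Of 12 neutrophil and precursor markers tested, 3 rose and 1 fell in libraries 3 and 4, where 25.6% of all genes rose and 25.7% fell, with 0 called between KO and WT by edgeR. The summed level of all 19 in the tables was 39.2, 75.2, 58.4 and 36.5 CPM in KO libraries 1 to 4 and 19.4, 46.2, 39.2 and 40.02 CPM in WT libraries 1 to 4. Ly6g and Retnlg, which define mature neutrophils, held at most 1 count in any library. Other genes of the list were detected, with 55 to 90 counts a library for Lcn2, 8 to 126 for Elane and 5 to 53 for Ctsg. Elane and Ctsg were both highest in KO 2. The sum was higher in KO at numbers 1, 2 and 3, as Mmp9 was, but KO 1, the library highest in Mmp9, ranked below KO 2 and KO 3 in it. Its part in the level of Mmp9 was not tested.

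Of 7 osteoclast markers tested, 4 rose and 3 fell in libraries 3 and 4, beside 25.6% of all genes higher and 25.7% lower. Atp6v0d2 and Dcstamp were among those that rose, and Acp5 and Tnfrsf11a, the RANK receptor gene, among those that fell. Of 7 dendritic cell markers, 5 rose and 1 fell, and the sum of the 11 in the tables was 506 to 714 CPM in libraries 3 and 4 and 20.9 to 116 CPM in libraries 1 and 2. Of 11 macrophage markers, 5 rose and 1 fell, and Spi1, the gene of the myeloid factor PU.1, was the 1 that fell. The same shares of all genes, 25.6% higher and 25.7% lower, stand beside the dendritic cell and macrophage counts. The part of these cells in the levels of the 10 genes was not tested.

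AGO2 carries miRNAs to mRNA, and the PAR-CLIP libraries give its groups on these genes. The KO library listed 85458 groups with 6445262 reads and the WT library 66451 groups with 6287870 reads, and the smallest listed group had 5 reads. With 1 library a genotype there is no test. Intervals are exact at 95% and cover counting error only, since PCR copies of reads are not independent molecules. The labels give these libraries no number that ties them to an mRNA library, so the number set they resemble is not known. Groups were listed for 7 of the 10 genes, and none in either library for Mmp8, Mmp2 and Timp1.

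Mmp12 carried most of the binding, with 22 groups in KO and 27 in WT. By group reads it ranked 241st of 10757 genes in KO and 201st of 9783 in WT. Its groups held 1161 reads in KO and 1639 in WT, or 180 reads per 1000000 group reads (170 to 191) in KO and 261 (248 to 274) in WT. The ratio of KO to WT was 0.691 (0.640 to 0.745). Given the wide spread of Mmp12 mRNA between number sets, this ratio cannot be told apart from a difference in the level of the mRNA.

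Most Mmp12 groups lay in the coding sequence, with 16 of 22 in KO and 18 of 27 in WT. Reads in the coding sequence were 832 in KO and 998 in WT, a ratio of 0.813 (0.741 to 0.893). Reads in the 3′UTR were 319 in KO and 598 in WT, a ratio of 0.520 (0.453 to 0.597). These are sums over groups listed separately in each library, and no test compares the ratios. The 3′UTR groups covered 164 bases with a mean of 63.8 reads a group in KO and 202 bases with 85.4 reads in WT, and the coding groups 355 bases with 52 reads in KO and 487 bases with 55.4 reads in WT. Over the whole libraries 3′UTR groups numbered 17420 in KO and 22109 in WT, and coding groups 9668 in KO and 10747 in WT. The strongest coding group, printed above from WT, had 349 reads in KO and 373 in WT with 6 conversion locations in each. The strongest 3′UTR group had 143 reads in KO and 358 in WT, a ratio of 0.390 (0.319 to 0.474). Next to it, 1 KO group of 135 reads overlapped 2 WT groups of 83 and 62 reads.

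Timp2 had 6 groups in KO and 6 in WT, and 1 pair of them coincided. Its reads were 147 in KO and 397 in WT, or 22.8 reads per 1000000 group reads (19.3 to 26.8) in KO and 63.1 (57.1 to 69.7) in WT, a ratio of 0.361 (0.297 to 0.438). Its groups covered 127 bases with a mean of 24.5 reads a group in KO and 155 bases with 66.2 reads in WT. A conversion was listed in 2 of the 6 KO groups and 5 of the 6 WT groups. The shared 3′UTR group had 86 reads in KO and 285 in WT, a ratio of 0.294 (0.229 to 0.376). Coding reads went the other way, with 27 in KO and 8 in WT. Timp2 mRNA varied from 137 to 279 CPM over the 8 mRNA libraries, and its mean differed little by genotype or number set. The PAR-CLIP libraries are tied to none of these, so the part of mRNA level in the ratio of 0.361 was not tested. Of the WT reads 389 lay in the 3′UTR, and over the whole libraries 3′UTR groups numbered 17420 in KO and 22109 in WT.

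The remaining genes had few reads. Mmp14 had 3 coding groups in KO with 62 reads and 1 intronic group in WT with 11 reads. Mmp13 had 2 groups in KO with 27 reads and none listed in WT. Mmp19 had 29 reads in 2 groups in KO and 48 reads in 3 groups in WT, a ratio of 0.589 (0.358 to 0.954). Over groups of at least 10 reads the Mmp19 ratio was 0.725, and no Mmp19 group overlapped between the genotypes. Timp3 had 26 reads in KO and 22 in WT, in the same 2 intronic places and with no conversion in either library. Mmp9 had 1 group a library at different places of the 3′UTR, with 12 reads in KO and 19 in WT, both with a conversion.

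**Figure D5:**
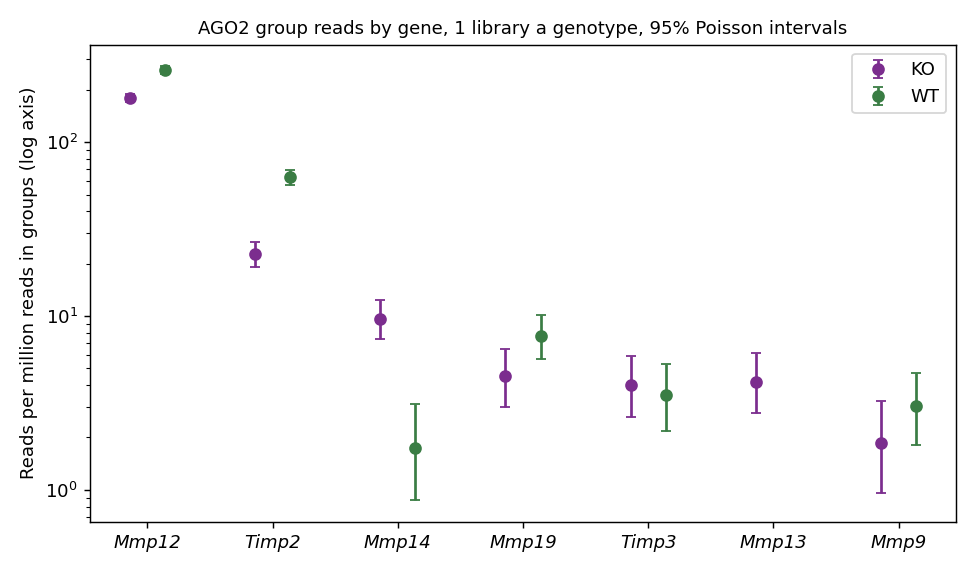
AGO2 reads of listed groups, per 1000000 of all such reads (y axis, log) for the 7 genes with a group, KO left and WT right, 1 library a genotype, with exact 95% Poisson intervals for counting error. Mmp12 and Timp2 are lower in KO beyond counting error of their ratio, and Mmp19 only narrowly so. Mmp14 is higher in KO, and Mmp13 has no WT point because no WT group was listed.

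All 7 genes with a group had at least 20 reads over both libraries. KO was at least 2 times WT for 2 of them, Mmp13 and Mmp14, and at most 1/2 of WT for 1, Timp2. Over the 9444 genes with as many reads, 26.4% and 20.4% passed these limits, so the members' shares were near the background. Of the members' groups, 19 of 38 in KO and 19 of 40 in WT overlapped a group of the other genotype by 1 base or more on the same strand. Over all groups the shares were 32.0% in KO and 41.0% in WT. Mmp12 alone held 16 of the 19 in each genotype, Timp3 held 2 and Timp2 held 1. No group of Mmp9, Mmp13, Mmp14 or Mmp19 overlapped, so the members' share is mainly that of Mmp12. A T-to-C conversion was listed in 25 of 38 KO groups and 31 of 40 WT groups, against 40.0% of all KO groups and 58.9% of all WT groups. These shares depend on place in the transcript, since 3′UTR groups were converted in 81.6% of cases in KO and 86.9% in WT. All coding groups were converted in 68.8% of cases in KO and 77.6% in WT. Of the members' groups, 23 of 38 in KO and 20 of 40 in WT were coding.

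Seed matches to the 30 most abundant miRNA seed families, which made up 91.5% of all miRNA counts, were found in 6 of 38 KO groups and 6 of 40 WT groups of these genes. Over all groups the shares were 14.6% in KO and 19.6% in WT. Both sites found in overlapping groups of the 2 genotypes were in Mmp12. The miR-21a-3p match lay in a coding group with the same ends in both, with 125 reads in KO and 91 in WT. A miR-125a-5p match lay in 3′UTR groups of 135 reads in KO and 83 in WT. A miR-21a-3p match was in 0.3% of all coding groups in KO and 0.326% in WT. The Mmp13 group in KO held a miR-29a-3p match, as did 2.1% of 3′UTR groups in KO. The Timp2 groups held a miR-24-3p match in KO (20 reads, no conversion) and a miR-27b-3p match in WT (35 reads, with a conversion). These were found in 1.31% of all KO 3′UTR groups and 3.09% of all WT 3′UTR groups. The Mmp19 group in WT (22 reads) held overlapping matches to miR-101b-3p and miR-23a-3p. Mmp14 in KO held matches to miR-30e-5p and miR-16-5p in groups of 15 and 20 reads.

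The strongest Timp2 group held no match to those 30 families. Its 8 capital letters match the seed of miR-19b-3p, a family that ranked 59th in abundance, and this match was looked for after the group was seen. A match to it was in 1.3% of all 3′UTR groups in KO and 1.23% in WT. The miR-19 family made up 0.0207% and 0.0186% of miRNA counts in KO small RNA libraries 3 and 4 and 0.0162% and 0.0166% in WT libraries 1 and 2. In the small RNA libraries genotype and number set cannot be told apart, because KO was numbered 3 and 4 and WT 1 and 2. The miR-29a-3p family made up 0.844% and 0.600% of miRNA counts in KO and 0.592% and 0.674% in WT.

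The AGO2 groups of these genes were also searched for U-rich and AU-rich motifs. TTTTT was in 2 of 12 3′UTR groups in KO and 1 of 15 in WT, beside 9.83% and 11.0% of all 3′UTR groups. In coding groups it was in 0 of 23 in KO and 2 of 20 in WT, beside 2.32% and 2.8% of all coding groups. ATTTA was in 1 of 12 in KO and 1 of 15 in WT, beside 6.33% and 7.48% of all, and in 0 of 23 coding groups in KO and 0 of 20 in WT, beside 2.36% and 2.85% of all coding groups. The Mmp9 group in KO began with TTTTT, as printed above, and the Mmp9 group in WT did not hold it. A match in these windows is a description of letters and says nothing of ELAVL1 binding, which these libraries did not measure.

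In all, 6 of the 10 genes overlap another gene in the RefSeq annotation. Timp1 lies with Syn1, Timp3 with Syn3, Timp2 with Cep295nl, Mmp19 with Tmem198b, Mmp8 with Gm31751 and Mmp2 with Gm45472. Whether the gene counts used strand is not given in the sources used here, so reads from these partners cannot be told apart.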

How the data were processed

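Total and small RNA came from mouse bone marrow-derived macrophages, per the labels' protocols. The authors deposited raw read counts and RPKM per gene, raw counts per miRNA, and lists of AGO2 groups with read counts. Per the submitters' processing notes, CASAVA 1.8.2, Bowtie 0.12.7 and mm9 were used. Samples were grouped by label. edgeR 4.0.16 (R 4.3.3) with TMM scaling, filterByExpr and the quasi-likelihood test gave log2 differences and Benjamini-Hochberg adjusted p-values over 14019 genes, in KO against WT, between library numbers 3 and 4 and numbers 1 and 2, and for their interaction. DESeq2 1.42.0, a replicate block and leaving out libraries were alternatives. AGO2 groups were assigned by the deposited gene name and searched for motifs with pandas 2.3.3, with intervals from SciPy 1.17.1. The code was tested on simulated data.

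Members, lists and the number split were chosen with earlier results of these data known. Named genes are the 10 members, genes called in a list or the 4 with the largest change, the 3 genes most correlated with each member, and Elavl1 and Lyz2. Csf1r, Adgre1, Ly6g, Retnlg, Elane, Ctsg, Mmp10 and Adam17 fall outside that rule and were chosen after their values were seen. Same-numbered KO and WT libraries deviated together from their group means (correlations 0.770, 0.810, 0.745 and 0.801 for numbers 1 to 4). Unlike numbers did so about as much within libraries 3 and 4, at 0.832 for KO 3 with WT 4 and 0.764 for KO 4 with WT 3. Numbers were treated as pairs. For numbers 3 and 4 this pairing, and the ratios and blocked fits that use it, rests on the label numbers alone.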

Additional observations from a re-analysis of the deposited data

Results flagged for a closer look

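Mmp9 in KO library 1, at 118 CPM, lay far above the other 3 KO libraries at 28.8, 19.3 and 15.2 CPM. The gap to its neighbour was 0.868 of the group's range. Chance flags about 1 in 20 groups, and 1 of the 20 groups of 4 libraries checked here was flagged. WT library 1 was likewise the highest WT library in Mmp9, at 58.5 CPM.

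The Mmp12 difference between KO and WT was negative at numbers 3 and 4, with log2 ratios of -0.21 and -0.71, and positive at numbers 1 and 2, with 0.49 and 0.12. The test of this difference gave a log2 interaction of -0.69 (SE 0.76, edgeR adjusted p = 1).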

How the results depend on the processing

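The count of genes called between KO and WT was 0 without a block, and 0 in every fit that left out 1 library, under RLE scaling, without the filter and with numbers 1 and 2 alone. It was 5 with the replicate block, 1 with the number set as a factor, 3 with DESeq2, 82 with DESeq2 and the replicate block, and 14 with numbers 3 and 4 alone. The replicate block without number 1, 2, 3 or 4 gave 4, 29, 7 and 3. The block changed the call of Mmp9 and of no other gene of the 10, and Mmp9 was not called in the blocked fit without number 1 or number 4.

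Between number sets, Timp2 ran from -0.35 to 0.0598 when 1 library was left out, reversing without WT library 2 (edgeR adjusted p = 0.809). Of the other calls there, Mmp9, Mmp12, Mmp13, Timp1 and Timp3 were called in all 11 alternatives. The ratio of AGO2 reads of all members, 0.669 of KO to WT, was 0.453 over 3′UTR groups alone, and 0.640 and 0.658 over converted groups and over groups of at least 10 reads. The cause was not tested. Depth limits Timp1 and Timp3, with at most 9 counts in libraries 1 and 2, Mmp2, with at most 58 counts in any library, and the AGO2 values of all members but Mmp12 and Timp2.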

Other observations

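The related ADAM and ADAMTS proteases, which shed surface proteins or cut matrix proteoglycans, had 4 of 9 tested genes that rose and 2 that fell in libraries 3 and 4, where 25.6% of all genes rose and 25.7% fell. They had a median log2 difference of 0.24, against 0.00 over all genes tested. Adamts1 rose by 2.82 (SE 0.23, edgeR adjusted p = 6.51e-05), and Adam19, Adam8 and Adam10 also rose. Adam15 fell by 0.93 on the log2 scale, and Adamts10 fell by 0.78. Adam17, which releases TNF and is blocked by TIMP3, is named for that role and had a log2 difference of 0.08 (edgeR adjusted p = 0.615). None of the 9 was called between KO and WT by edgeR.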
